A study of Homo sapiens with 14 samples.

Results

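The last part of human 18S ribosomal RNA that carries scores, nt 1600 to 1839, was followed through a chemical mapping of cellular RNA in HEK293, an established line of human embryonic kidney origin. Its members are the 240 nucleotides of that range that have a value for every reagent, out of 1833 scored nucleotides of 18S rRNA. The range was set by position, with earlier results of these data known. No nucleotide of the range lacked a value. The remaining 1593 scored nucleotides, nt 7 to 1599, served as the reference.

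Cells were exposed for 10 min to 100 mM AcIm (acetylimidazole, a small acylating agent), to 100 mM NAIN3 (NAI-N3, a nicotinic acid imidazolide that carries an azide), to 200 mM of a reagent given as AcIN3, or to 10% DMSO as the solvent control. Every group came from the same cell line, which carries adenovirus 5 DNA. The labels list 2 replicates for each group, and the values used here are the authors' means over replicates for AcIm, AcIN3 and NAIN3 on ribosomal RNA cut from an agarose gel. Replicate values, read counts and a DMSO profile were not analysed here, so the depth is unknown and no comparison below carries a p-value or a replicate error. Polyadenylated RNA was not analysed here.

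The small ribosomal subunit reads the codon. Its P site holds the anticodon end of the tRNA that carries the growing chain. The nucleotides at this site include nt 1639, in the head, and nt 1701. Helix 44 (h44) is a long helix that runs down the face of the subunit toward the large subunit. At its upper end lie the adenosines nt 1824 and nt 1825, which swing out to inspect the pairing of codon and tRNA in the A site. The acylating reagents react with 2′-hydroxyl groups of the ribose where the backbone is mobile and within reach, and the adduct is read as a stop of reverse transcription. Each nucleotide has an R-score between 0 and 1, and a higher score is read as a more open nucleotide.

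The numbering is that of the 1869-nt mature rRNA, the length of all 5 RNA18SN genes listed for GRCh38.p14. RNA18SN1, RNA18SN2 and RNA18SN3 lie on chromosome 21, RNA18SN4 is assigned to chromosome 22, and RNA18SN5 occupies bases 109078 to 110946 of an unplaced sequence. Each encodes a structural rRNA with no coding region, and reads from the copies cannot be told apart. The rRNA sequence was not used here, so no base or base pair was checked. The limits of the helices, taken from the conserved numbering of small-subunit rRNA, are therefore approximate. They divide the stretch into the 3′ part of the head (nt 1600 to 1684), the returning strand of h28 with its linker (nt 1685 to 1699), a 5′ part of h44 (nt 1700 to 1766), a 3′ part of h44 (nt 1767 to 1833) and the linker that leads to h45 (nt 1834 to 1839). The h44 parts are equal in length and cut by position, and how far they match its paired strands was not checked.

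**Figure D1:**
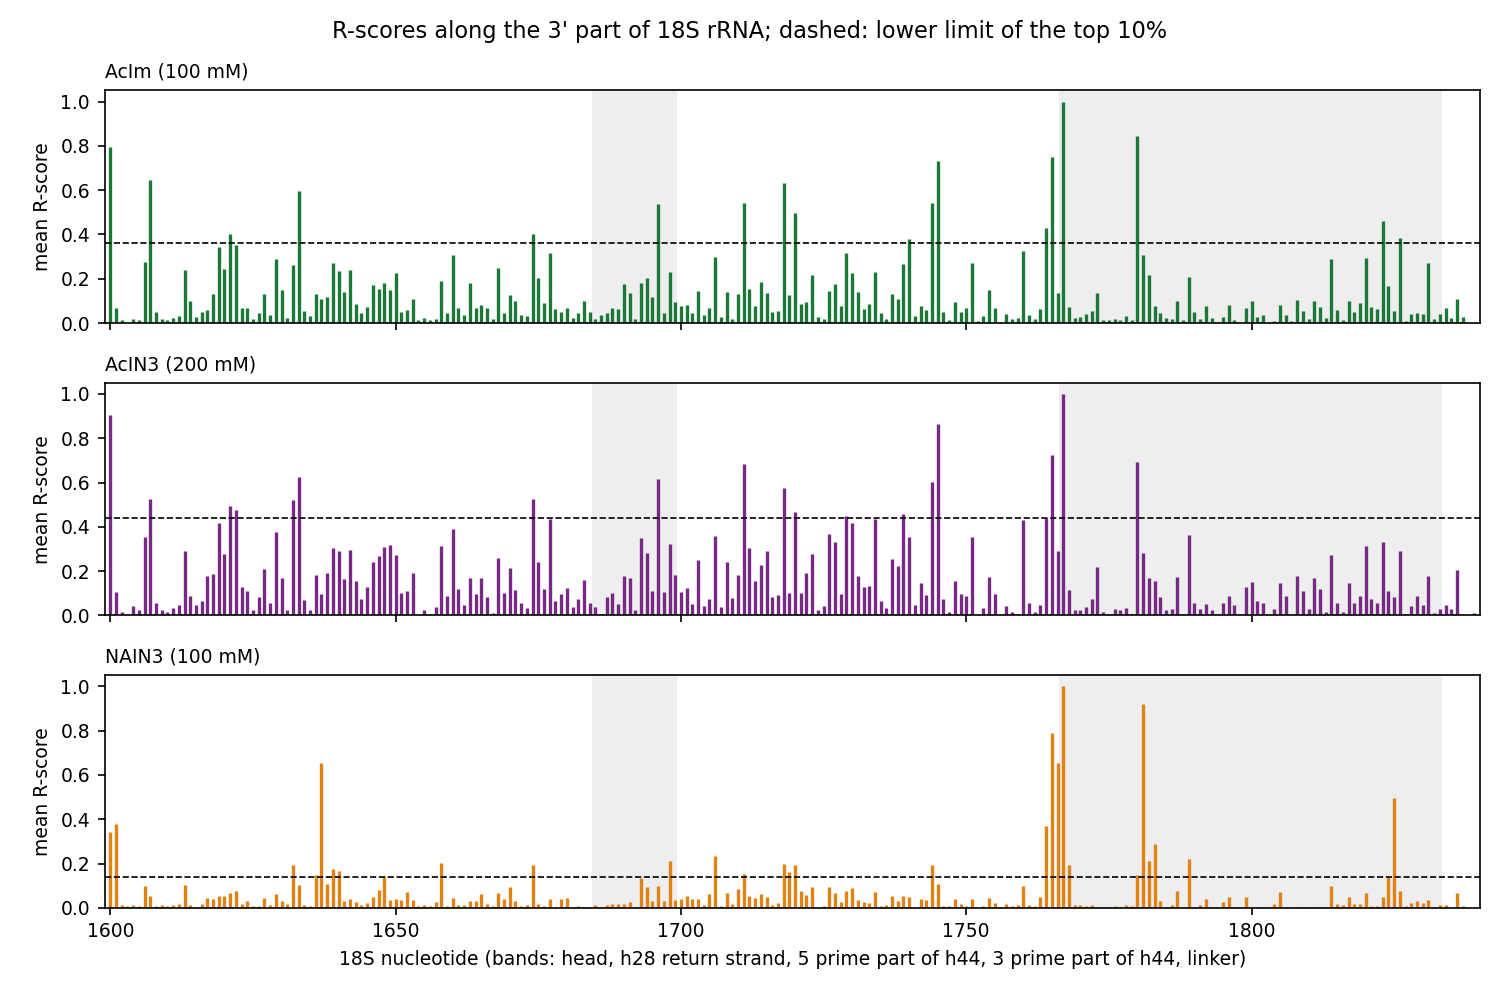
Mean R-score (0 to 1) of each nucleotide from nt 1600 to 1839 for AcIm, AcIN3 and NAIN3, 1 line per nucleotide, with bands for the regions and a dashed line at the lowest score of the top 10%. The values are means over replicates without error bars; nt 1767 stands at 1 in every panel, and long low stretches lie on both sides of nt 1780.

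Scores in the stretch were slightly lower than in the rest of 18S for AcIm and AcIN3 and slightly higher for NAIN3. AcIm had a median of 0.0695 over the 240 nucleotides and 0.079 over the other 1593. For AcIN3 these medians were 0.0995 and 0.1195, and for NAIN3 0.0248 and 0.0215. The order-statistic 95% intervals of the stretch medians were 0.057 to 0.0795, 0.086 to 0.1195 and 0.0175 to 0.0335. They hold the corresponding medians of the rest, for AcIN3 only at the upper limit. These intervals describe variation along the molecule only, and no difference was tested.

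The most reactive class was the top 10% of scores of a reagent over all scored 18S nucleotides, 183 nucleotides each or 9.98%. It began at 0.3595 for AcIm, where the next lower score was 0.359, at 0.4395 for AcIN3 (0.439) and at 0.1385 for NAIN3 (0.138). The stretch held 18 such nucleotides for AcIm (7.5%, Clopper-Pearson 95% interval 4.51 to 11.6%), 19 for AcIN3 (7.92%, 4.83 to 12.1%) and 29 for NAIN3 (12.1%, 8.24 to 16.9%). Each interval holds 9.98%, so each share was near the background.

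Nucleotides that were low with every reagent were frequent. A percentile rank below the median of AcIm, AcIN3 and NAIN3 alike was found at 101 of 240 nucleotides (42.1%, 35.8 to 48.6%), against 34% of all scored 18S nucleotides and 32.8% of those outside the stretch. The interval treats neighbouring nucleotides as independent, which they are not. The longest such runs had 6 nucleotides each, at nt 1684 to 1689, where the head joins h28, and at nt 1774 to 1779 in the 3′ part of h44. The longest run with no nucleotide in the top 10% of any reagent was nt 1790 to 1822, 33 nucleotides on the way back to the decoding centre. The next were nt 1675 to 1695 with 21 and nt 1746 to 1763 with 18. Runs were not measured outside the stretch, so their lengths have no reference. The top 10% of any reagent held 16.7% of the stretch and 17.8% of the rest.

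Scores of exactly 0 were unevenly placed. NAIN3 was at 0 on 7 nucleotides of the stretch (2.92%, 1.18 to 5.92%), against 8.67% of all scored 18S nucleotides and 9.54% of the rest. These were nt 1741, nt 1797, nt 1801, nt 1806, nt 1807, nt 1810 and nt 1839, so none lay in the head. AcIm was at 0 on 5 nucleotides (2.08%, against 0.764% of all) and AcIN3 on 10 (4.17%, against 3.27%). The 5 zeros of AcIm, at nt 1603, nt 1794, nt 1798, nt 1803 and nt 1838, were all zeros of AcIN3 too, and at none of them was NAIN3 at 0. NAIN3 scored between 0.002 and 0.0065 there.

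The 5′ part of h44 scored above the 3′ part with all reagents. The medians were 0.0855 and 0.046 with AcIm, 0.135 and 0.0565 with AcIN3, and 0.0385 and 0.012 with NAIN3. With NAIN3 the order-statistic intervals were 0.0285 to 0.0525 and 0.0075 to 0.018 and did not overlap, nor did they with AcIN3 (0.096 to 0.222 and 0.0415 to 0.0885). With AcIm they overlapped slightly (0.066 to 0.134 and 0.0325 to 0.0695). The share of the top 10% followed the same order for AcIm (8 of 67 and 4 of 67) and AcIN3 (9 and 2), whereas NAIN3 had 9 of 67 in each. With the approximate limits moved by -5 nt the NAIN3 shares were 10.4% in the 5′ part and 17.9% in the 3′ part, and with limits moved by 5 nt they were 16.4% and 10.4%. The head part lay between them with medians of 0.0695, 0.120 and 0.0295 for AcIm, AcIN3 and NAIN3. The 6 nucleotides of the linker were low, with medians of 0.0253, 0.018 and 0.007.

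**Figure D2:**
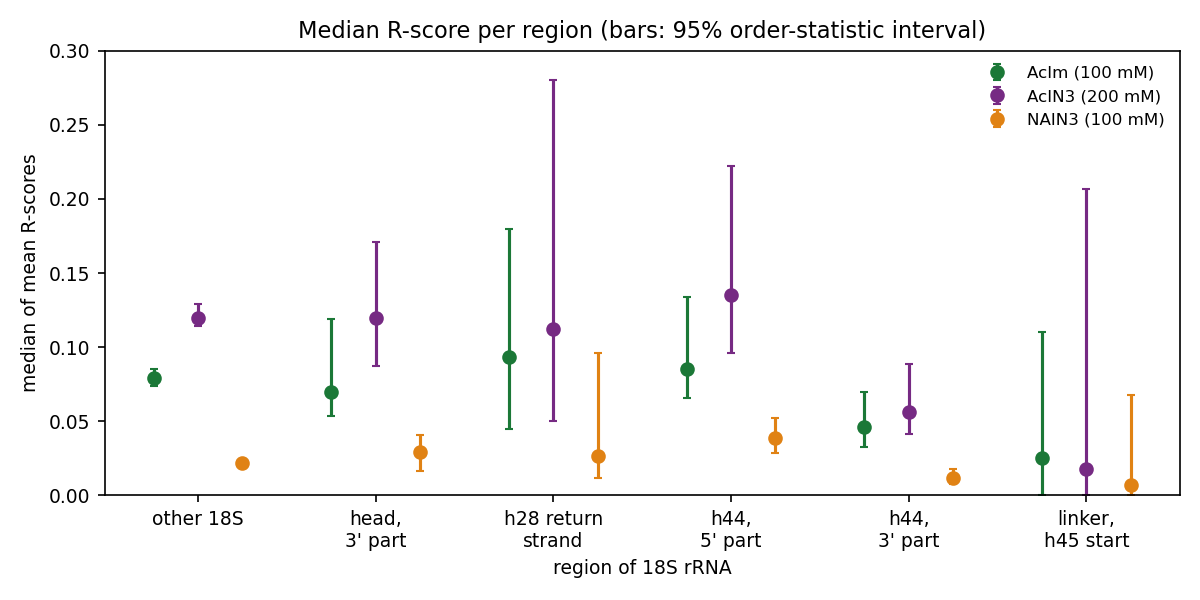
Median of the mean R-scores in the rest of 18S and in the 5 regions of the stretch for each reagent, with 95% order-statistic intervals over nucleotides, not over replicates. With NAIN3 and AcIN3 the intervals of the 5′ and 3′ parts of h44 do not overlap.

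Across the 240 nucleotides AcIm and NAIN3, the reagents used at equal dose and time, had a higher rank correlation than over the rest of 18S. Spearman's correlation was 0.80 over the stretch and 0.55 over the other 1593 nucleotides. In the other consecutive stretches of 18S, 6 of 240 nt and a first one of 153 nt, it ranged from 0.39 (nt 160 to 399) to 0.71 (nt 880 to 1119), and it was 0.57 in the adjoining nt 1360 to 1599. AcIN3 and NAIN3, which differed in dose, had a Spearman correlation of 0.79 in the stretch, 0.55 in the rest and 0.75 in nt 880 to 1119. Between AcIm and AcIN3 it was 0.96 and 0.95. Nucleotides are not replicates, the profiles share an RNA and possibly a DMSO control, and these coefficients are descriptions without a test.

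Zeros of NAIN3 were rarer in the stretch, as given above. With nucleotides at 0 left out, Spearman's correlation for AcIm and NAIN3 was 0.78 in the stretch and 0.60 in the rest. With the top nucleotides of either reagent left out it was 0.75 and 0.46. Pearson's r, which follows the highest scores, was 0.55 and 0.48, so on that measure the stretch and the rest lay close. For AcIm and NAIN3 it was higher in nt 1120 to 1359 (0.60) and nt 400 to 639 (0.57) than in the stretch, and for AcIN3 and NAIN3 it was 0.64 in nt 1120 to 1359 against 0.53 in the stretch. Within the stretch, Spearman's correlation for AcIm and NAIN3 was 0.88 in the 5′ part of h44, 0.86 in the returning strand of h28 (15 nucleotides), 0.76 in the head part and 0.65 in the 3′ part of h44. Of the 5 widest leads of AcIm over NAIN3 in rank, 4 fell in that 3′ part. Nt 1773 led with 0.135 for AcIm and 0.0055 for NAIN3, before nt 1808 (0.105, 0.003), nt 1800 (0.099, 0.003) and nt 1811 (0.098, 0.003). The last, nt 1683 of the head, scored 0.101 and 0.0055.

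**Figure D3:**
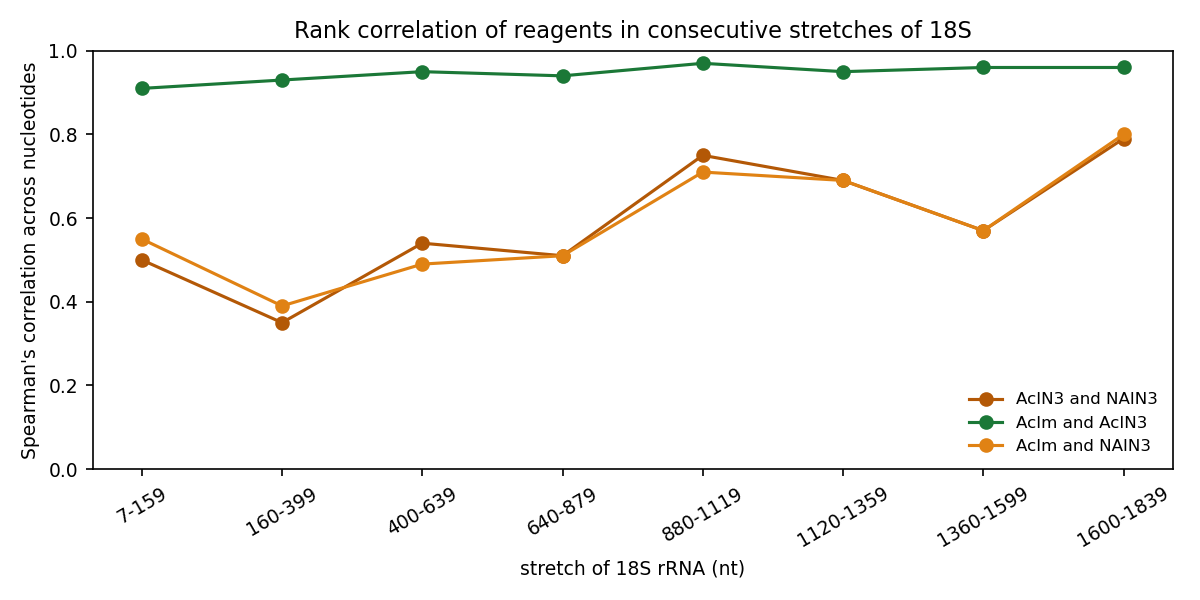
Spearman's correlation across nucleotides for each pair of reagents in consecutive stretches of 18S (nt 7 to 159, then 240 nt each). AcIm and NAIN3 stand at 0.80 in nt 1600 to 1839 and between 0.39 and 0.71 in the others, while AcIm and AcIN3 stay between 0.91 and 0.97.

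At 10 nucleotides all 3 reagents were in their top 10% (4.17%, against 3.6% of all scored 18S nucleotides). They were nt 1600 and nt 1674 in the head, nt 1711, nt 1718, nt 1720, nt 1744, nt 1764 and nt 1765 in the 5′ part of h44, and nt 1767 and nt 1780 in its 3′ part. Of the 18 top nucleotides of AcIm, 10 were shared with NAIN3, which is 55.6% of AcIm's and 34.5% of NAIN3's 29. Outside the stretch the shares were 37% and 39.6%. AcIm and AcIN3 shared 15, or 83.3% and 78.9%, against 78.8% and 79.3% outside the stretch. In the top 10% of NAIN3 alone stood 18 of its 29 (62.1%, against 55.2% outside the stretch), whereas AcIm and AcIN3 had 3 each of their own (16.7% and 15.8%, against 18.2% and 15.9% outside).

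Around the P site, the head nucleotides that touch the tRNA ranked near or above percentile 80 with every reagent. Nt 1639, a guanosine methylated at its base by BUD23, scored 0.272 with AcIm (percentile rank 84.7), 0.305 with AcIN3 (81.3) and 0.177 with NAIN3 (92.1). Its neighbour nt 1640, the counterpart of a bacterial adenosine that contacts the same tRNA stem, scored 0.237 (82), 0.292 (80) and 0.167 (91.5). Both were in the top 10% of NAIN3 and not in that of AcIm or AcIN3.

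The highest NAIN3 score of the head stood just before them. Nt 1637 scored 0.656 with NAIN3 (rank 97.9), 0.108 with AcIm and 0.096 with AcIN3. Were all replicate scores within the range of 0 to 1, the mean over a pair would set limits for each, and both NAIN3 replicates must have been at least 0.311 there, both AcIm replicates at most 0.216 and both AcIN3 replicates at most 0.192. The replicates of NAIN3 then did not overlap with those of AcIm or AcIN3 at nt 1637, whatever their values were. Nt 1636 scored 0.148 with NAIN3 against 0.132 with AcIm, and nt 1638 scored 0.109 against 0.120, so the large excess of NAIN3 was at 1 position. Nt 1634 and nt 1635 were at most 0.071 with any reagent, and nt 1641 and nt 1642 scored 0.142 and 0.238 with AcIm but only 0.0295 and 0.0415 with NAIN3. Slightly upstream, nt 1633 ran the other way with 0.596 for AcIm, 0.623 for AcIN3 and 0.103 for NAIN3.

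Where the P-site tRNA meets the start of h44, scores were moderate or low. Nt 1701, the counterpart of the bacterial cytidine on which the wobble base of the P-site tRNA stacks, scored 0.0815 with AcIm (rank 52.2), 0.123 with AcIN3 (51.9) and 0.0525 with NAIN3 (73.4). Nt 1703, a ribose-methylated cytidine near the P-site codon, scored 0.146, 0.249 and 0.0385. Their neighbours from nt 1699 to nt 1705 stayed at or below 0.0935 with AcIm and 0.061 with NAIN3. Nt 1830, on the returning side of h44 beside the same codon, was lower at 0.0425, 0.049 and 0.023, although nt 1831 after it reached 0.273 with AcIm and 0.176 with AcIN3. Next to the mRNA path, nt 1698 was in the top 10% of NAIN3 with 0.211 (rank 93.6), and scored 0.230 with AcIm (81.5) and 0.322 with AcIN3 (83). Nt 1696 was high with AcIm (0.537) and AcIN3 (0.616), whereas NAIN3 gave 0.1, which is below its top 10%.

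**Figure D4:**
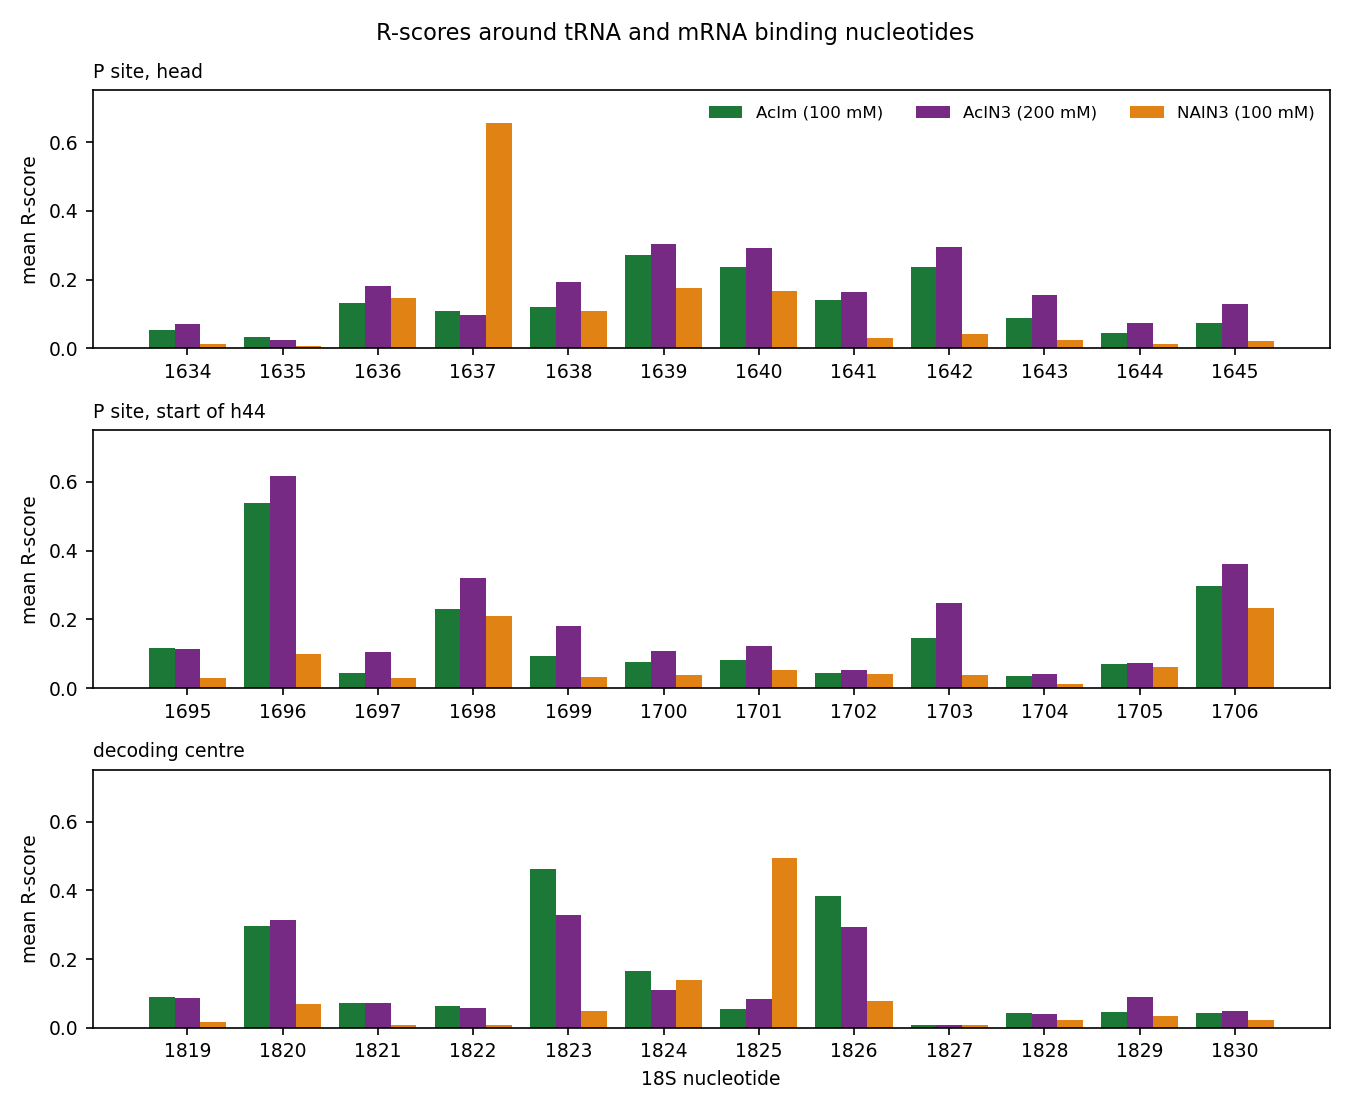
Mean R-scores (bars from 0) of AcIm, AcIN3 and NAIN3 around the P-site nucleotides of the head, at the start of h44 and in the decoding centre; replicate spread was not available. NAIN3 peaks at nt 1637 (0.656) and nt 1825 (0.495), where AcIm stands at 0.108 and 0.0545.

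In the decoding centre NAIN3 had its highest score at nt 1825, where AcIm and AcIN3 were low. From nt 1823 to nt 1827, AcIm scored 0.461, 0.166, 0.0545, 0.383 and 0.009. AcIN3 gave 0.330, 0.111, 0.083, 0.293 and 0.0075 along the same nucleotides. NAIN3 gave 0.0495, 0.1385, 0.495, 0.077 and 0.009. The acetyl reagent AcIm thus had its high scores on both sides of the monitoring adenosines, with nt 1823 and nt 1826 in its top 10%, and NAIN3 had nt 1824 and nt 1825 in its own. Nt 1824 lay exactly at the lower limit of NAIN3's class, and its score was higher with AcIm. AcIN3 had none of the 5 in its top 10%. Just before them nt 1821 and nt 1822 were low (0.0725 and 0.0645 with AcIm, 0.009 each with NAIN3), and nt 1820 scored 0.296, 0.314 and 0.068 with AcIm, AcIN3 and NAIN3. Nt 1825 showed the widest lead of NAIN3 over AcIm in rank within the stretch, 97.3 against 37.8. The means do not fix this order for single replicates. A mean of 0.495 allows a NAIN3 replicate at 0, and neither nt 1823 nor nt 1826 met the bound in AcIm's favour.

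Across the groove, nt 1709, which faces the monitoring adenosines and lines the pocket of aminoglycoside antibiotics, was low with AcIm (0.02, rank 12.2), AcIN3 (0.0795, 36.6) and NAIN3 (0.0165, 41.9). The nearby nt 1711 was in the top 10% of all reagents at 0.541, 0.684 and 0.154, and nt 1706 scored 0.298, 0.361 and 0.234, which put it in NAIN3's top 10% only. Over the 12 listed nucleotides of the P site, mRNA path and decoding centre, the median rank was 71.4 with AcIm, 63.6 with AcIN3 and 77.1 with NAIN3. With each nucleotide averaged with its neighbours over 3 nt it was 52.7, 54.1 and 68.9, which for AcIm and AcIN3 is near the middle of 18S. NAIN3 had 5 of the 12 in its top 10%, AcIm 2 and AcIN3 0, against 9.98% of all scored 18S nucleotides for each reagent. Some of these nucleotides are neighbours, so they are not 12 separate observations, and the same comparison was known before the list was drawn up.

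The highest score of the stretch with every reagent lay in the middle of h44. Nt 1767 scored 1 with AcIm, AcIN3 and NAIN3, which means that every replicate was at 1 if scores are capped there. It is 1 of 7 such nucleotides in 18S. Before it, nt 1764 scored 0.431 with AcIm, 0.441 with AcIN3 and 0.37 with NAIN3. All were higher at nt 1765, at 0.748, 0.725 and 0.789. The reagents parted at nt 1766, where NAIN3 gave 0.656, AcIm 0.134 and AcIN3 0.291. By the replicate bound both NAIN3 replicates, at least 0.312, exceeded both AcIm replicates, at most 0.268. At nt 1768 NAIN3 scored 0.195 and AcIm 0.074, and from nt 1769 to nt 1772 no score exceeded 0.0725. Whether nt 1767 stops reverse transcription without any reagent was not tested, since no DMSO profile was analysed here.

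A second group began 13 nucleotides further on, after a low run, and the reagents divided it. Nt 1780 scored 0.844 with AcIm, 0.693 with AcIN3 and 0.147 with NAIN3. The next nucleotide, nt 1781, scored 0.308, 0.283 and 0.92. By the bound, AcIm replicates were at least 0.688 at nt 1780 and NAIN3 replicates at most 0.293. At nt 1781 NAIN3 replicates were at least 0.84 and AcIm replicates at most 0.616, with AcIN3 replicates at most 0.565. The order of the AcIm and NAIN3 scores was thus opposite at adjacent nucleotides, and the means fix it in both places. NAIN3 stayed high at nt 1782 (0.211) and nt 1783 (0.287), where AcIm scored 0.219 and 0.078.

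**Figure D5:**
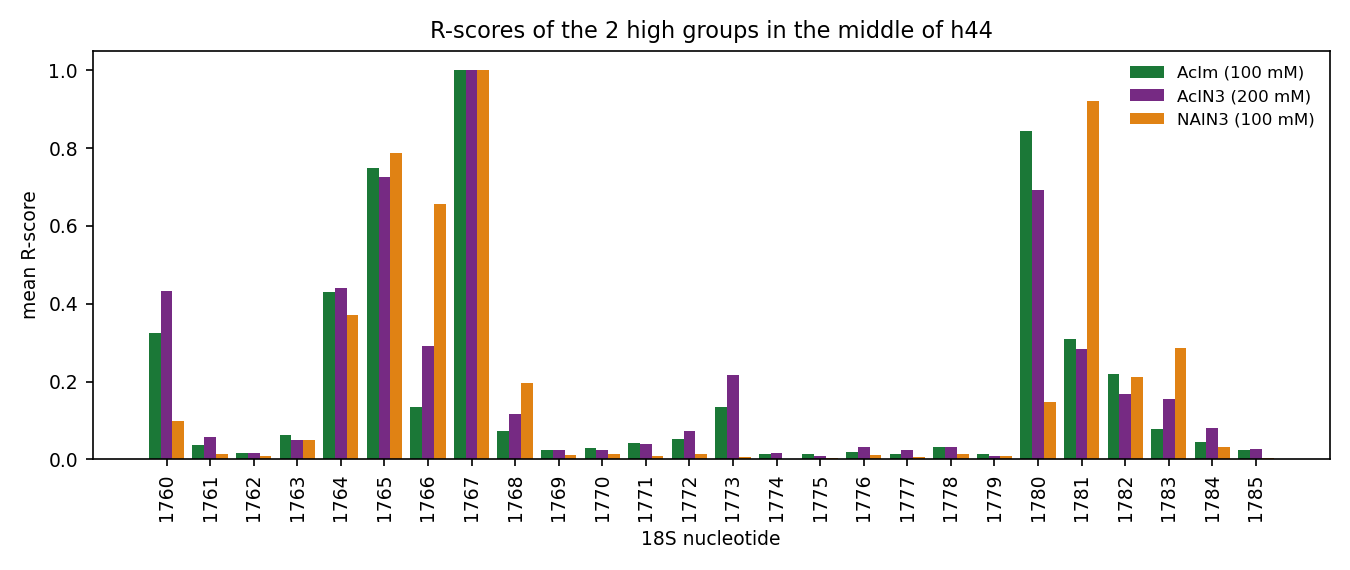
Mean R-scores (bars from 0) of AcIm, AcIN3 and NAIN3 from nt 1760 to 1785 in the middle of h44; replicate spread was not available. All reagents reach 1 at nt 1767, and the lead passes from AcIm (0.844) at nt 1780 to NAIN3 (0.92) at nt 1781.

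Counted over the stretch, both replicates of AcIm exceeded both of NAIN3 by the bound at 3 nucleotides, nt 1607, nt 1745 and nt 1780 (1.25%, against 2.45% of all scored 18S nucleotides). The reverse held at 3, nt 1637, nt 1766 and nt 1781 (1.25%, against 1.04%). Nt 1607 scored 0.648 with AcIm, 0.526 with AcIN3 and 0.0535 with NAIN3. Nt 1745 scored 0.731, 0.867 and 0.110, beside nt 1744 with 0.544, 0.602 and 0.195. For AcIN3 over NAIN3 the count was 6 (2.5%, against 3.44%), at nt 1600, nt 1633, nt 1696, nt 1711, nt 1745 and nt 1780. For NAIN3 over AcIN3 it was 2 (0.833%, against 0.927%), nt 1637 and nt 1781. Only a mean above the middle of the range can meet the bound as the higher one, so a count depends on how many such scores a reagent has.

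Opposed nucleotides, where one reagent was in its top 10% and another ranked below its median, were few. No AcIm-high nucleotide of the stretch fell below the median of NAIN3 (0 of 240, which allows up to 1.53% by the Clopper-Pearson limit, against 1.31% of all scored 18S nucleotides and 24 nucleotides outside the stretch). The same count of 0 held for AcIN3 over NAIN3, against 1.31% of all. NAIN3-high nucleotides below the median of AcIm were nt 1601, nt 1768 and nt 1825 (1.25%, against 1.2%). Below the median of AcIN3 they were nt 1601, nt 1637, nt 1719, nt 1768, nt 1824 and nt 1825 (2.5%, against 1.36%). These counts depended on the rule. Scores were also scaled to the 95th percentile of each reagent, capped at 1 and called opposed when at least 0.5 apart. By that rule AcIm led NAIN3 at 7 of 240 nucleotides (91 of 1593 outside the stretch) and AcIN3 led it at 7 (86 outside). In reverse, NAIN3 led AcIm at 6 (47 outside) and AcIN3 at 7 (40 outside). With ranks below 25 as the low class, both counts of NAIN3-high nucleotides were 0, against 4 (AcIm) and 6 (AcIN3) outside the stretch.

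The NAIN3 score exceeded that of AcIm at 20 of 240 nucleotides (8.33%, 5.16 to 12.6%), against 10.6% of all scored 18S nucleotides. The widest rank leads of NAIN3 over AcIm after nt 1825 were at nt 1601, nt 1783, nt 1768 and nt 1804. At nt 1804 both scores were low (0.018 with NAIN3 and 0.008 with AcIm, ranks 45 and 1.72). Over AcIN3 the 5 widest included nt 1763 (0.0485 with NAIN3 and 0.049 with AcIN3, ranks 71.3 and 25). Of NAIN3's 29 top nucleotides 12 were among the 20 where it exceeded AcIm. Of these 12, 6 (50%) came directly after a nucleotide in AcIm's top 10%. Nt 1601 followed nt 1600 (0.796 with AcIm), nt 1719 followed nt 1718 (0.634), nt 1766 followed nt 1765, nt 1768 followed nt 1767 and nt 1781 followed nt 1780. The sixth was nt 1765 itself, after nt 1764. Nt 1765, nt 1766 and nt 1768 lie in the same group of top nucleotides, nt 1764 to 1768, so they are not separate cases. Nt 1601 scored 0.377 with NAIN3 against 0.0695 with AcIm, and nt 1719 scored 0.162 against 0.128. Among the other 17 top nucleotides of NAIN3 in the stretch 1 (5.88%) followed a top nucleotide of AcIm, and outside the stretch the corresponding shares were 22.1% (17 of 77) and 13% (10 of 77). Directly before a top nucleotide of AcIm stood 3 of the 12 (25%) and 3 of the 17 (17.6%), against 10.4% and 18.2% outside. Whether a shift in register has a part in these counts was not tested. Over the whole stretch, Spearman's correlation was 0.14 between AcIm and NAIN3 taken 1 nt further toward the 3′ end, 0.31 with NAIN3 taken 1 nt toward the 5′ end, and 0.80 in register.

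The naturally modified nucleotides of the stretch had mixed scores. Of the 4 ribose-methylated positions, whose 2′-hydroxyl is blocked, nt 1804 was low (0.008 for AcIm, 0.027 for AcIN3, 0.018 for NAIN3), while nt 1678 scored 0.0635, 0.064 and 0.0055. Nt 1668 ranked well above the middle, with 0.251 (rank 83.7), 0.261 (76.7) and 0.065 (77.7), while the nucleotides next to it, nt 1667 and nt 1669, scored 0.017 and 0.0445 with AcIm. The fourth, nt 1703, is given above. The pseudouridines nt 1625 and nt 1692 scored 0.02 each with AcIm, 0.0255 each with AcIN3, and 0.0085 and 0.005 with NAIN3, whereas nt 1643 scored 0.0885, 0.154 and 0.0245. Nt 1832, an adenosine methylated by METTL5, was low at 0.017, 0.009 and 0.005. These positions come from general knowledge of human 18S rRNA and were not checked against its sequence.

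The other top nucleotides were scattered. With NAIN3 they included nt 1648 (0.146), nt 1658 (0.203) and nt 1789 (0.221), at each of which AcIm was below its top 10% (0.181, 0.191 and 0.207). With AcIm and AcIN3 the head had nt 1621 (0.403 and 0.494), where NAIN3 scored 0.0675, and nt 1674 (0.401 and 0.524), where NAIN3 scored 0.195. Nt 1600, the first nucleotide of the stretch, scored 0.796 with AcIm, 0.903 with AcIN3 and 0.342 with NAIN3. AcIN3 alone had nt 1622 (0.477), nt 1729 (0.45) and nt 1739 (0.459) in its top 10%. In h44, nt 1720 scored 0.498, 0.469 and 0.194, and nt 1740 scored 0.378, 0.354 and 0.047.

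AcIm and AcIN3, used at 100 and 200 mM, differed little in rank. The widest AcIm lead was at nt 1824 (72.9 against 47.7), followed by nt 1792 (49.4 against 26), nt 1686, nt 1834 and nt 1719. The widest AcIN3 lead was at nt 1617, with ranks of 65.4 against 40.6 and scores of 0.179 against 0.0605, followed by nt 1709 (36.6 against 12.2), nt 1797, nt 1726 and nt 1806. All of these lie outside the top 10% of both reagents. No nucleotide of the stretch met the replicate bound between this pair in either direction, and because the doses differed no further comparison was made.

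By windows of 10 nt, AcIm and AcIN3 had the same 3 highest windows. These began with nt 1760 to 1769 (mean scores 0.285 and 0.315), followed by nt 1710 to 1719 (0.209 and 0.27) and by nt 1740 to 1749 (0.202 and 0.245). NAIN3 shared the first (0.319) and was otherwise highest at nt 1780 to 1789 (0.191) and nt 1630 to 1639 (0.145). The lowest windows were nt 1770 to 1779, nt 1790 to 1799 and nt 1800 to 1809 for AcIm (0.0362, 0.0359 and 0.0457). For NAIN3 they were nt 1770 to 1779 (0.00815), nt 1800 to 1809 (0.0106) and nt 1680 to 1689 (0.0139), and for AcIN3 nt 1770 to 1779 (0.0472), nt 1790 to 1799 (0.0478) and nt 1830 to 1839 (0.0563).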

How the data were processed

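Acylation of RNA was measured in HEK293 cells by reverse transcription stops, per the labels in 14 samples of 7 groups. The deposited values are R-scores, a score from 0 to 1 per nucleotide, given as the authors' mean over replicates. The labels list 2 replicates for each group. All 5499 values lay on steps of 0.0005. The submitters' processing notes name Bowtie2 and GRCh38, without versions. Not given in the sources used here are the R-score formula, how DMSO entered it, any depth filter and the rRNA reference. A cap at 0 and 1 removes order at both ends, and averaging removes replicate error.

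From the scores, percentile ranks (ties averaged) over all 1833 scored 18S nucleotides, the top 10% (ties by position), exact Clopper-Pearson and order-statistic intervals at 95%, and Spearman's correlations were computed. The intervals cover variation over nucleotides only. For the bound, a mean m places each replicate between 2m − 1 and 2m. No test was run. Only the rules for opposed nucleotides and for the bound were checked on simulated data, in profiles with large planted differences and no noise. Positions named are the listed sites with neighbours, the 10 highest per reagent, opposed and bound-separated nucleotides, those at 0 or at the top with every reagent, the 5 largest rank differences per direction and the 3 highest and lowest windows of 10 nt; nt 1621, nt 1622, nt 1648, nt 1658, nt 1729, nt 1739, nt 1740, nt 1782 and nt 1789 were added after their values were seen. Members and lists were chosen with earlier results of these data known. The 28S profile was not used here. Software was numpy 2.4.6 with scipy 1.17.1, pandas 2.3.3 for tables and matplotlib 3.10.9 for plots, under Python 3.11.15. Alternatives covered class limits, profile ends, stretch and helix limits, zeros, smoothing, register and scaling. Other stretches of equal length and the removal of top nucleotides were added after seeing the data.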

Additional observations from a re-analysis of the deposited data

How the results depend on the processing

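No paired analysis was possible because only means over replicates were analysed here, and for the same reason no replicate could be left out. With the top 20% as the class, the share of the stretch was 18.3% for AcIm and AcIN3 and 20.4% for NAIN3. With the top 5% it was 3.75% for AcIN3 and 4.17% for NAIN3, against 5.15% and 5.08% of the rest, so the NAIN3 share passed below that of the rest. Medians of the stretch stayed within their 95% intervals of variation along the molecule in the 9 alternatives. With a mean over 3 nt the median rank of the listed sites was 52.7, 54.1 and 68.9 for AcIm, AcIN3 and NAIN3. Ranks within the stretch gave 75, 66.7 and 76.4. In the 3′ part of h44, limits moved by -5 and by 5 nt gave 8.96% and 4.48% for AcIm, and 5.97% and 1.49% for AcIN3. Spearman's correlation for AcIm with NAIN3, AcIN3 with NAIN3 and AcIm with AcIN3 was 0.76, 0.74 and 0.94 with 5-nt running means. Pearson's r was 0.55, 0.53 and 0.95. With the second reagent of each pair taken 1 nt further toward the 3′ end, Spearman's correlation was 0.14, 0.14 and 0.22. Taken 1 nt toward the 5′ end, it was 0.31, 0.29 and 0.24. Without zeros it was 0.78 for both NAIN3 pairs. Without top nucleotides, chosen after seeing the data, it was 0.75, 0.76 and 0.95, and without nt 1764 to 1768 it was 0.79 for AcIm and NAIN3. Opposed nucleotides by scaled scores 0.5 apart numbered 7 for AcIm over NAIN3, 6 for the reverse and 7 for AcIN3 over NAIN3 among 240 nucleotides, against 91, 47 and 86 among the other 1593. With the low class below rank 25, NAIN3 led AcIm and AcIN3 at 0 and 0, against 4 and 6 among the other 1593. With no neighbour in the other reagent's top 10% the counts were 0 and 3, against 12 and 13 among the other 1593. With the top 5% NAIN3 led AcIN3 at 3, against 6 among the other 1593. The h28 share became 0% for every reagent with limits moved by -5 nt.

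Depth is unknown, so low signal and low coverage cannot be told apart. Helix limits and base identities were not checked against a sequence. DMSO stops were not analysed here.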
